A study of Mus musculus with 19 samples.

Results

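The 47 genes described here encode the subunits, activators and assembly factors of the mouse proteasome, including the immunoproteasome. They were taken by symbol: Psm followed by a, b, c, d, e, f or g and a number, with at least 190 counts summed over the 19 libraries. Of 55536 genes in the count matrix, 49 rows matched the symbol pattern. Psme2b, with 742 counts, was the lowest member, and Psma8 with 94 counts and Psmb11 with 3 fell below the minimum. The members comprised 31 constitutive subunits, 5 genes of the immunoproteasome and its PA28 activator, and 11 others.

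The proteasome is a barrel-shaped protease whose core particle is built of alpha and beta rings, capped by a regulatory particle of a base and a lid that binds ubiquitin-tagged proteins, unfolds them and feeds them in. The proteolytic sites of the constitutive core lie in the beta subunits encoded by Psmb5, Psmb6 and Psmb7. Interferon gamma induces Psmb8, Psmb9 and Psmb10, whose products take those places in newly built cores, and Psme1 and Psme2, which form the PA28 cap. The resulting immunoproteasome is abundant in leukocytes and trims peptides for presentation on MHC class I.

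Messenger RNA was measured by RNA sequencing of mouse kidney. Obstructed kidneys gave 15 libraries, 7 from the vehicle arm and 8 from the arm treated with zalfermin, a long-acting FGF21 analogue. Healthy kidneys gave 4. The series design calls the model UUO, the usual abbreviation of unilateral ureteral obstruction, and the healthy group vehicle, whereas the sample labels give MASH for the obstructed libraries, untreated for the healthy ones and only a code for the drug, taken here as zalfermin. The sources used here state no strain, sex, age, dose or duration. Nor do they say that each library is a separate animal, so a p-value here speaks of the spread among libraries, which may be technical.

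Libraries held 12209122 to 14844103 counts. Vehicle replicate 6 stood apart, with 19788 genes detected and 1.10% of its counts from mitochondrial genes, against 21374 to 22216 genes and 3.09% to 4.21% in the other vehicle libraries. Healthy libraries had 8.77% to 10.2% mitochondrial counts. Levels are in CPM, a gene's counts scaled to the library's total after TMM adjustment for composition. The kidney's own markers were abundant in every healthy library: the 6 proximal tubule markers summed to between 15405 and 18909 CPM.

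Promoter stretches of 5 members are shown as examples. The genes are Psmb8, Psmb9 and Psme1 of the immunoproteasome, and Psmb5 and Psmb6, whose products those of Psmb8 and Psmb9 replace. No comparison of levels used these stretches. They are RefSeq windows on GRCm38.p6, read 5′ to 3′ on the gene's strand. Each ends at the base before the RefSeq start site, or for Psme1 at the end of a match just after it. The gene spans given below are those of GENCODE. For Psmb8, Psmb9 and Psme1 that span starts further upstream, so the whole stretch lies inside it. Capitals mark matches to GAS (TTCNNNGAA, an interferon gamma activated site), ISRE (TTTC, any 2 bases, TTTC, an interferon response element) or ARE (TGACNNNGC, a site of the Nfe2l1 and Nfe2l2 factors). The Psmb8 stretch is chr17:34197945-34198194 on the plus strand, that of Psmb9 chr17:34187331-34187580 on the minus strand, and that of Psme1 chr14:55578244-55578512 on the plus strand. Psmb5 is at chr14:54617996-54618245 on the minus strand and Psmb6 at chr11:70525107-70525356 on the plus strand.
Psmb8: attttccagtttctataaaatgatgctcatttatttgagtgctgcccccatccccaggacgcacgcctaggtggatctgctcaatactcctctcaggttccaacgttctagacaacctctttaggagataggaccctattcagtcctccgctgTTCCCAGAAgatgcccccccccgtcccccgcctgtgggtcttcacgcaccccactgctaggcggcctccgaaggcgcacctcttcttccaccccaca
Psmb9: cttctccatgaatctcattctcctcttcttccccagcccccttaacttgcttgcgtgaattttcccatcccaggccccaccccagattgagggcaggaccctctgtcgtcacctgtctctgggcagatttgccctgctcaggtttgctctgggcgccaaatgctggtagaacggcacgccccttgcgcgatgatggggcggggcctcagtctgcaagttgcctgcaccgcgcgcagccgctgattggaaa
Psme1: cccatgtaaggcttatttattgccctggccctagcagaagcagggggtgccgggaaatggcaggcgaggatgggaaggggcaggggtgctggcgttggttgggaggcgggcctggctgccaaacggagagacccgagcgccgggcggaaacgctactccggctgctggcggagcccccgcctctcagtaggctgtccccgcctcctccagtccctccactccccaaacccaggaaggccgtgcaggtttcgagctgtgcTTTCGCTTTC
Psmb5: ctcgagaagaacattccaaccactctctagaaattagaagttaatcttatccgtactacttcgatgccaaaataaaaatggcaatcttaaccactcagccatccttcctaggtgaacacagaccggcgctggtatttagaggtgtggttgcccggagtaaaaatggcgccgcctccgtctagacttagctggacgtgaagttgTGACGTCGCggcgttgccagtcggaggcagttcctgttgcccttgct
Psmb6: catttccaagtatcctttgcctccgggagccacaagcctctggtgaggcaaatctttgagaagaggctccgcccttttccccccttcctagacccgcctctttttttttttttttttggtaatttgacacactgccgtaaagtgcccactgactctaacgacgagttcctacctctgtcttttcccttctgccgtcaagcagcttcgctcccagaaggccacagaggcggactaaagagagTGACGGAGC

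The Psmb8 window held a GAS match that began 97 bases before the start site, and the Psme1 window an ISRE match that began 9 bases after it. The Psmb5 and Psmb6 windows each held an ARE match and neither of the other motifs. No letters of these 3 motifs stood in the windows of Psmb9, Psmb10 and Psme2. Windows of 300 bases were available for 40 members, 25 of them constitutive subunits, and were searched on both strands. A GAS match was found in 3 of the 40 (7.5%), against 8.3% of all 32851 promoters. An ISRE match was found in 5 (12.5%, against 3.44%) and an ARE match in 6 (15%, against 12.4%). The ISRE matches lay in 1 of 5 immunoproteasome and PA28 windows (Psme1) and 2 of 25 constitutive windows (Psmb3 and Psmd4). The remaining 2 were those of Psmd9 and Psmg4, among 10 other members. By the test given below, only Psme1 of these was called higher in obstructed vehicle over healthy kidneys. Besides Psmb8, the GAS matches were in Psmd2 and Psmg1. An ARE match stood in 4 of the 25 constitutive windows (16%). The RefSeq start sites of Psmb9 and the peptide transporter gene Tap1 lie 226 bases apart on opposite strands, so their windows overlap. The overlap of their exons given below is by GENCODE, where Psmb9 starts further upstream.

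All 5 immunoproteasome and PA28 genes rose in obstructed vehicle kidneys over healthy kidneys, by 1.61-fold to 4.94-fold, and their groups did not overlap. In the same comparison 1 of 31 constitutive subunits rose and 16 fell, by smaller amounts. The whole transcriptome moved too: edgeR's quasi-likelihood test called 64.8% of the 16026 tested genes at an adjusted p under 0.05, 36.2% higher and 28.6% lower. Groups did not overlap, with obstructed libraries above, for 24.7% of tested genes, and below for 19.5%. All 47 members passed the filter on low counts, 7 were called higher and 22 lower. The falls depend on how libraries are scaled: with library totals and no composition factors, 23 members were called higher and 0 lower.

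Psmb8 encodes the chymotrypsin-like subunit of the immunoproteasome and lies on chromosome 17, 34197721 to 34201454. Its healthy libraries had 12.1, 15.98, 10.5 and 10.7 CPM. Vehicle libraries ranged from 55.8 to 67.2 with a median of 58.8, and zalfermin libraries from 43.2 to 71.5 with a median of 50.6. Every obstructed library was thus above every healthy one. The mean went from 12.3 ± 2.53 (SD, n = 4) to 61.0 ± 4.66 CPM (SD, n = 7), a log2 fold change of 2.30 (SE 0.135), with an adjusted p of 2.22e-12 by edgeR's quasi-likelihood test. Of its exon bases 11.4% overlap Gm20496 on the opposite strand.

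Psmb9, the immunoproteasome subunit that replaces Psmb6, is its neighbour on chromosome 17, at 34181987 to 34187764. Healthy libraries had 4.18, 7.72, 7.08 and 2.95 CPM. Vehicle libraries lay between 17.6 and 21.2 with a median of 18.6, and zalfermin libraries between 10.7 and 20.1 with a median of 13.9. The lowest zalfermin library remained above the highest healthy one. The log2 fold change of vehicle over healthy was 1.80 (SE 0.203, edgeR adjusted p = 6.71e-08). Of the Psmb9 exon bases, 15.7% also lie in Tap1 exons on the opposite strand, and Tap1 itself rose, so part of the Psmb9 count may come from it if strand was ignored in counting.

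Psmb10, which replaces Psmb7, lies on chromosome 8 at 105935735 to 105938444. Its healthy libraries had 14.4, 17.7, 13.6 and 11.9 CPM, vehicle libraries 37.7 to 54.9 with a median of 44.7, and zalfermin libraries 36.2 to 53.1 with a median of 43.2. The 2 obstructed groups covered nearly the same range, far from the healthy libraries. The log2 fold change of vehicle over healthy was 1.68 (SE 0.137, edgeR adjusted p = 4.07e-10).

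The PA28 genes lie close together on chromosome 14, Psme1 at 55578123 to 55581529 and Psme2 at 55587441 to 55591113, and had smaller fold changes than the catalytic genes. Psme1, the alpha subunit, had 61.3, 70.4, 57.2 and 57.6 CPM in healthy libraries and 97.9 to 127 with a median of 107 in vehicle libraries. Psme2, the beta subunit, had 46.8, 57.4, 47.2 and 48.4 CPM in healthy libraries and 71.8 to 91.6 with a median of 80.6 in vehicle libraries. Both were already at a substantial level in healthy kidney, 55.4 and 51.2 CPM per kb of exon against 4.06 to 10.97 for the 3 catalytic immunosubunits. Their log2 fold changes were 0.83 (SE 0.0919, edgeR adjusted p = 5.10e-08) and 0.69 (SE 0.0989, adjusted p = 2.39e-06). Psme2b, a close copy of Psme2, rose by 1.19 (SE 0.235, adjusted p = 1.27e-04) from 1.45 ± 0.427 to 3.30 ± 0.646 CPM (SD, n = 4 and 7). Of the 50-base words of Psme2b 68.7% occur in Psme2, so reads may have been split between the 2 genes.

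Markers of several leukocyte classes and of fibroblasts rose beside these genes. In vehicle over healthy kidneys all 6 general leukocyte markers and 7 of 7 macrophage markers were called higher. So were 7 of 7 T and NK cell markers and 5 of 5 fibroblast markers. By the same test 6 of 6 proximal tubule markers were called lower, and of all tested genes 36.2% were higher and 28.6% lower. The summed leukocyte markers ran from 91.5 to 110 CPM in healthy libraries, from 413 to 565 with vehicle and from 344 to 533 with zalfermin, and none of these markers was at 0 in any group. Of the 3 tested B cell markers 1 was called higher, and their median log2 fold change was −0.66. The summed fibroblast markers ran from 127 to 208 CPM in healthy libraries, from 1877 to 3502 with vehicle and from 1108 to 1811 with zalfermin. Ptprc, the pan-leukocyte phosphatase CD45, rose by a log2 fold change of 2.63, Adgre1, the macrophage receptor F4/80, by 3.70, and Cd3e of the T cell receptor complex by 1.87, whereas the tubular receptor gene Lrp2 fell by 1.86. The part of these cells in the rise of the immunoproteasome genes was not tested. In bulk tissue, a changed number of cells of a type and a changed amount of RNA per cell cannot be told apart.

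**Figure D1:**
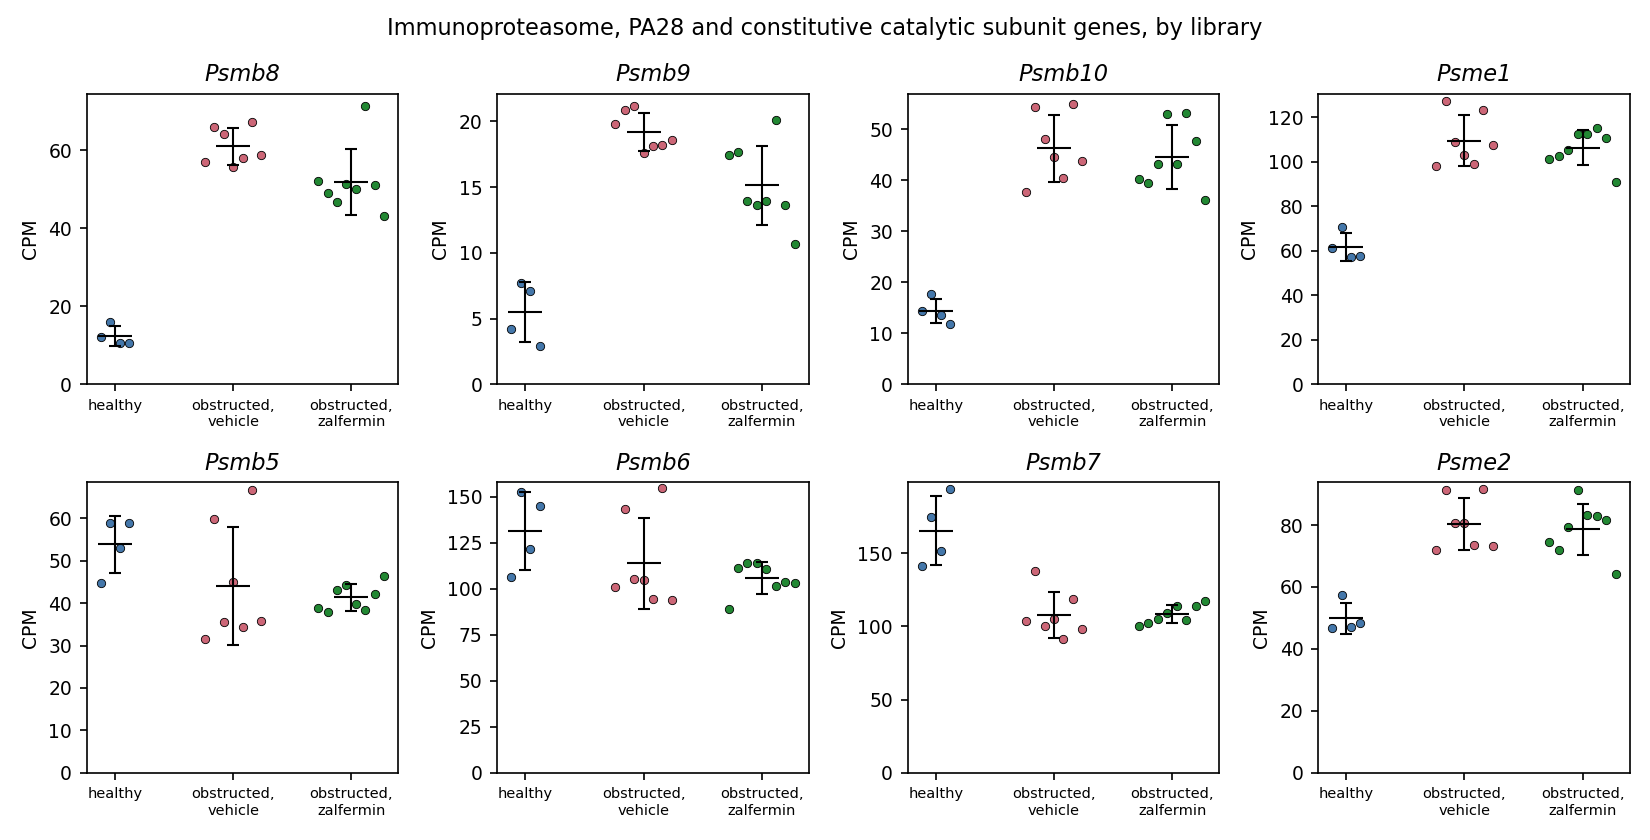
Level in CPM (y axis, from 0) of the 5 immunoproteasome and PA28 genes and of 3 constitutive catalytic genes in each library (points) of the healthy, obstructed vehicle and obstructed zalfermin groups, with the mean (bar) and SD (whiskers). For Psmb8 the healthy libraries reach 15.98 CPM and the vehicle libraries start at 55.8, while the Psmb5 groups overlap.

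Among the constitutive catalytic genes Psmb7 was called lower, and Psmb5 and Psmb6 were not called. Psmb7, the trypsin-like subunit on chromosome 2 at 38588036 to 38644087, had 142, 175, 151 and 194 CPM in healthy libraries, 91.1 to 138 with a median of 104 under vehicle, and 99.96 to 117 with a median of 107 under zalfermin. It fell by 0.61 on the log2 scale (SE 0.101, edgeR adjusted p = 1.28e-05) with no overlap between vehicle and healthy. It was not called with library totals (−0.18, adjusted p = 0.0716) or with a GC and length correction (−0.19, adjusted p = 0.274). Of its exon bases 34.9% overlap Nek6 on the opposite strand.

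Psmb5, the chymotrypsin-like constitutive subunit on chromosome 14 at 54614119 to 54618022, had 44.7, 58.9, 53.0 and 58.8 CPM in healthy libraries and 31.6 to 66.7 with a median of 35.8 in vehicle libraries. Vehicle replicates 2 and 6, at 59.9 and 66.7 CPM, were above every healthy library. Vehicle replicate 4, at 45.0, lay just above the lowest healthy one, and the other 4 lay below them all. The log2 fold change was −0.29 (SE 0.161, adjusted p = 0.123), and Psmb6, the caspase-like subunit on chromosome 11 at 70525367 to 70527858, gave −0.20 (SE 0.130, adjusted p = 0.173). With library totals and no composition factors they were 0.14 and 0.23, again not called. Psmb5 was called lower with RLE factors (−0.37), DESeq2 (−0.37) and voom (−0.53), and Psmb6 with voom (−0.32). Without vehicle replicate 6 edgeR called both lower, Psmb5 at an adjusted p of 0.00298 and Psmb6 at 0.00857, and without vehicle replicate 2 Psmb5 alone of these 2, at 0.039. The copy Gm3375 holds part of the Psmb5 sequence, and 54.1% of the 50-base words of Psmb5 occur in other genes.

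Of the 7 alpha subunits that gate the core, 5 fell (Psma1, Psma2, Psma3, Psma4 and Psma6) and none rose. Psma5 and Psma7 had log2 fold changes of 0.18 and 0.16 without being called. Of all tested genes 28.6% were called lower and 36.2% higher. With library totals none of the 7 was called lower, and Psma5, Psma6 and Psma7 were called higher. With the GC and length correction only Psma3 stayed lower, and Psma5 and Psma7 were called higher. The calls of Psma1, Psma2 and Psma6 were each lost without healthy replicate 2 or healthy replicate 4. Of the 7 constitutive beta subunits only Psmb7 was called. The 9 base subunits, which include the ATPases that unfold substrates, all had negative log2 fold changes, and 4 fell: Psmc1, Psmc2, Psmc5 and Psmc6. Psmc6 gave the lowest of them, −0.44, or −0.01 with library totals, and vehicle replicate 6 had 53.4 CPM of it against 104 to 128 in the other vehicle libraries. With library totals no base subunit was called lower, and Psmc3, Psmd1, Psmd2 and Psmd4 of the base were called higher. With the GC and length correction only Psmc6 of the base was called lower.

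In the lid, which removes ubiquitin chains, 6 of 8 genes fell and Psmd8 rose. Of all tested genes 28.6% were called lower and 36.2% higher. Psmd6 and Psmd3 each fell by 0.51, and Psmd14, the deubiquitinase, by 0.35. With library totals none of these 3 was called, at −0.08, −0.08 and 0.08, and with the GC and length correction Psmd14 was not called either. No lid gene was called lower with library totals, and Psmd7 and Psmd13 were then called higher beside Psmd8. Psmd8, the lid gene called higher with TMM factors, had 133, 178, 157 and 169 CPM in healthy libraries. Its vehicle libraries had 182 to 235 with a median of 208. Its lowest vehicle library was above its highest healthy one, for a log2 fold change of 0.37 (SE 0.0965, edgeR adjusted p = 0.0019).

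Across the 31 constitutive subunits the median log2 fold change was −0.25, beside 0.09 over all tested genes, with a range from −0.61 to 0.37. Groups did not overlap for 1 subunit above and 4 below, together 16.1% of the 31. Of all tested genes 24.7% did not overlap above and 19.5% below, both larger shares than among these subunits. The direction of the median against 0 depended on the scaling of libraries. With library totals and no composition factors, 13 constitutive subunits were called higher and 0 lower, while the median of all genes moved from 0.09 to 0.51. With a GC and length correction 5 were called higher and 5 lower. The constitutive median stayed below the median of all genes in each of 11 settings, by 0.16 to 0.37. Without vehicle replicate 6, 25 were called lower, and without healthy replicate 2, 10. The 5 immunoproteasome and PA28 genes were called higher in every one of the 30 fits, Psmb8 between 2.23 and 2.73 and Psme2 between 0.60 and 1.11.

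**Figure D2:**
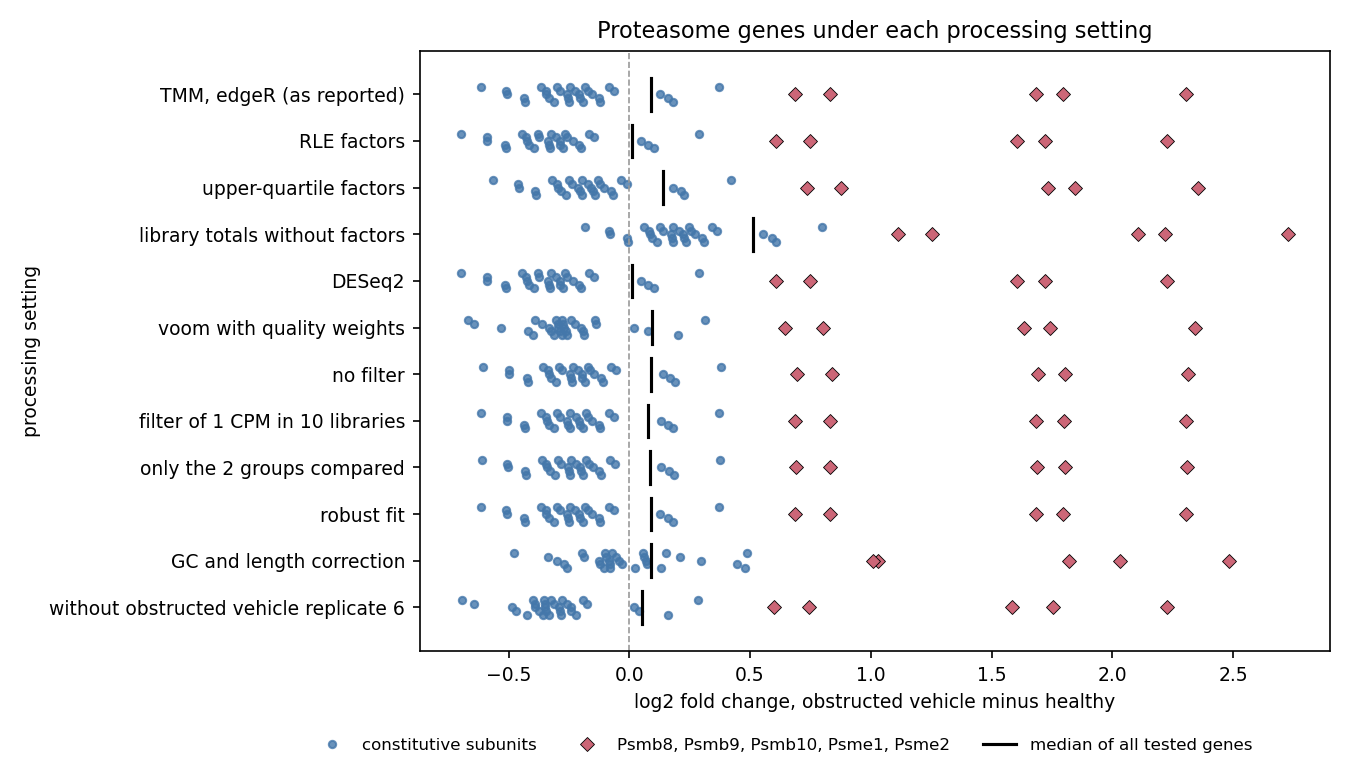
Log2 fold change of obstructed vehicle over healthy (x axis) for the 31 constitutive subunits (circles) and the 5 immunoproteasome and PA28 genes (diamonds) under 12 processing settings (y axis), with the median of all tested genes (bar). The diamonds lie to the right of the bar in every setting, while most circles lie to the right of 0 only when libraries are scaled by their totals alone.

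Of 7 assembly chaperones, 4 were called lower (Psmg1, Psmg2, Psmd5 and Psmd9) and none higher, where 28.6% of all tested genes were called lower and 36.2% higher. With library totals none of them was called lower, and with the GC and length correction Psmg2 was not. In both of these fits Psmd10, Psmg3 and Psmg4 were called higher. Psmg1, which pairs with Psmg2 to assemble the alpha ring, went from 31.7 ± 4.01 to 21.5 ± 2.36 CPM (SD, n = 4 and 7), a fall of 0.56 on the log2 scale (SE 0.101, edgeR adjusted p = 4.35e-05). With library totals its value was −0.13 (adjusted p = 0.231), and with the GC and length correction −0.24. Psmd10, the oncoprotein gankyrin, gave 0.20 (adjusted p = 0.0730).

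Psme4 encodes the activator PA200 and had the lowest fold change of all members. It had 299, 289, 309 and 369 CPM in healthy libraries and 119 to 264 with a median of 199 in vehicle libraries, with vehicle replicate 6 the lowest. It fell by 0.68 on the log2 scale (SE 0.131, edgeR adjusted p = 9.27e-05). With library totals it was not called, at −0.25 (adjusted p = 0.0728). Psme3, the nuclear PA28 gamma, fell by 0.29 (SE 0.0775, adjusted p = 0.00219) but gave 0.13 with library totals alone. Psmf1, an inhibitor of the core, gave 0.01 (adjusted p = 0.958).

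**Figure D3:**
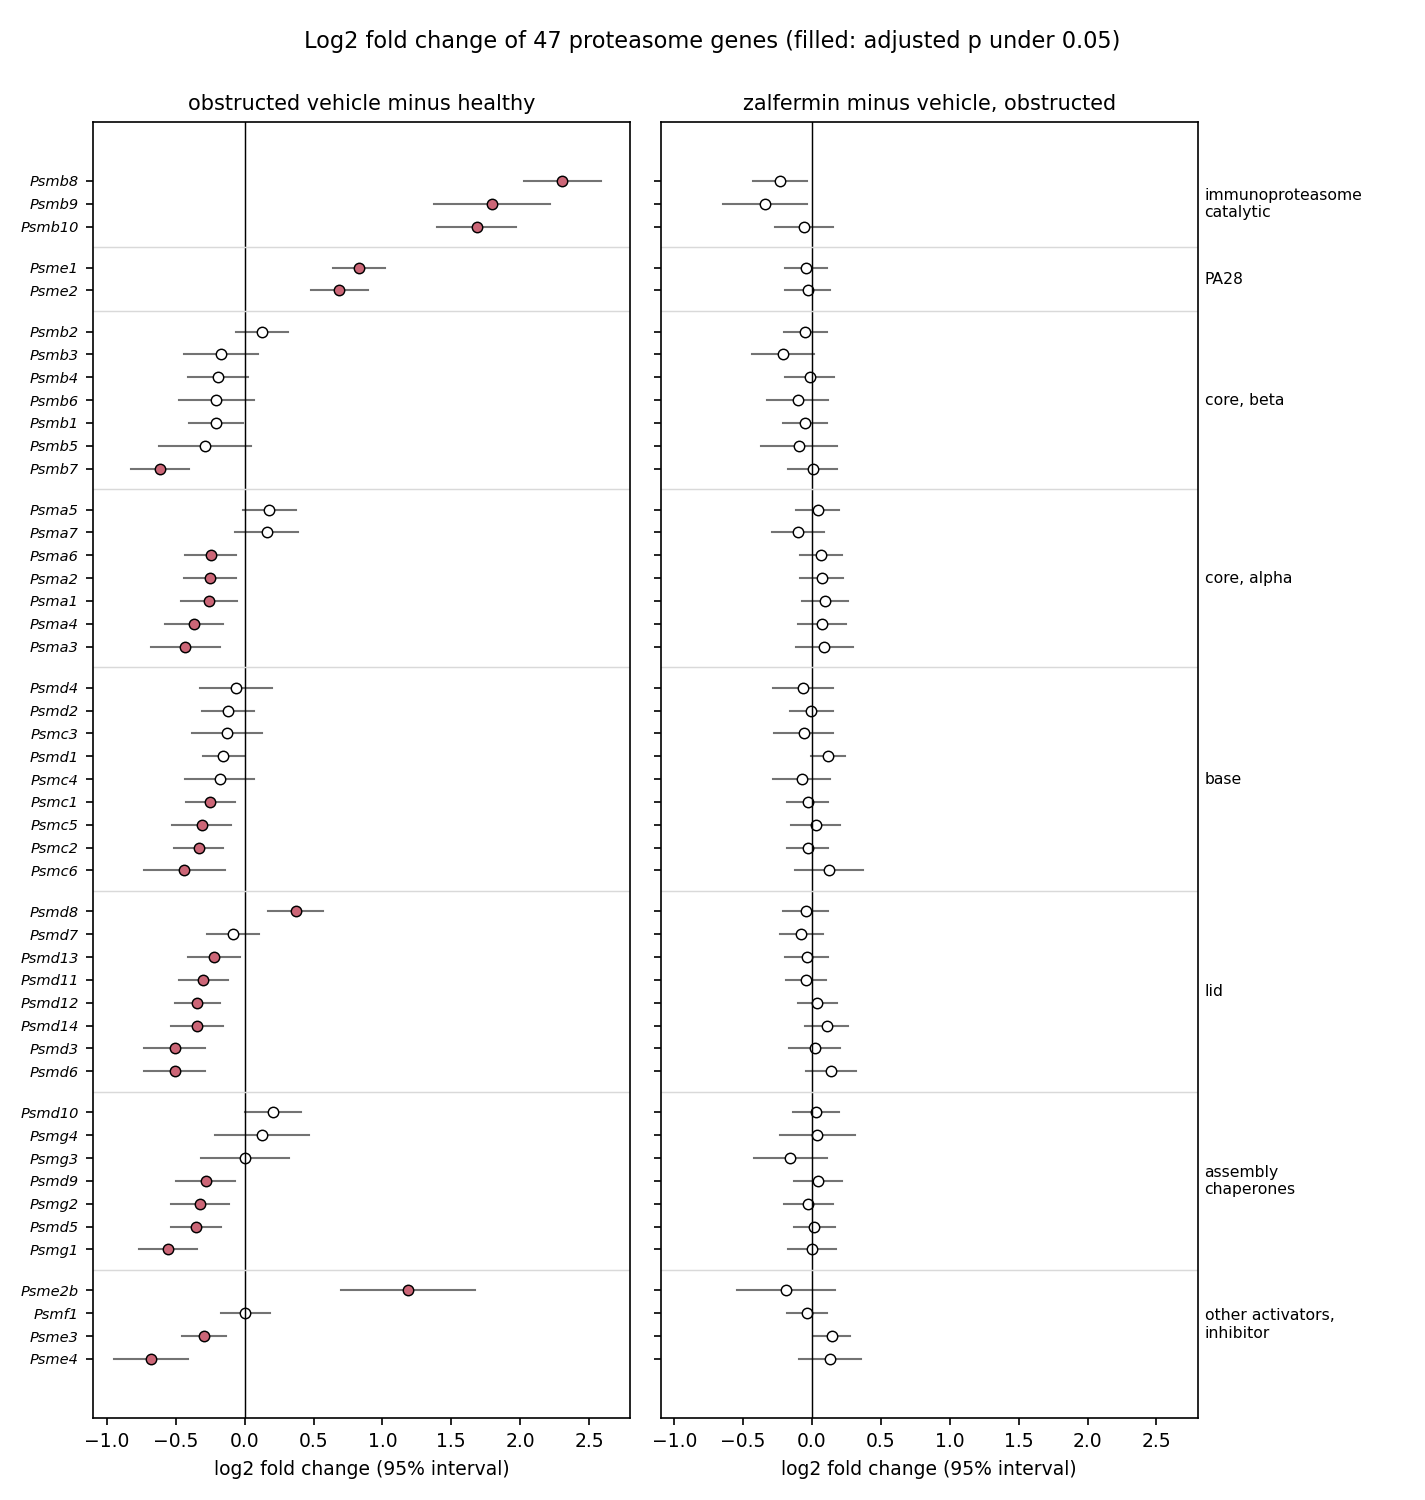
Log2 fold change with its 95% interval (x axis) for each of the 47 genes (y axis, grouped by role) in obstructed vehicle over healthy (left) and in zalfermin over vehicle among obstructed kidneys (right); filled points had an adjusted p under 0.05. On the left Psmb8 is farthest right at 2.30 and Psme4 farthest left at −0.68, while no point is filled on the right.

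The exchange of catalytic subunits was measured within each library, which needs no scaling factor. Per kb of exon, Psmb8 was at 0.127 ± 0.0260 of Psmb5 among healthy libraries (SD, n = 4), 0.812 ± 0.190 with vehicle (n = 7) and 0.700 ± 0.152 with zalfermin (n = 8). In healthy libraries the ratio was 0.149, 0.150, 0.110 and 0.101, and in vehicle libraries 0.556 to 0.999 with a median of 0.908. For Psmb9 to Psmb6 the means were 0.0249, 0.103 and 0.0853, and for Psmb10 to Psmb7 they were 0.0783, 0.381 and 0.365. No healthy library reached any obstructed one for any pair.

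The ratios rose 6.31-fold, 4.37-fold and 4.95-fold in vehicle over healthy kidneys. For each pair the two-sided exact permutation test gave p = 0.00606, the smallest that 7 against 4 libraries allow, and 0.00909 after Benjamini-Hochberg adjustment over 9 tests. In zalfermin over healthy kidneys the folds were 5.49, 3.59 and 4.71, each at p = 0.00404 by the same exact test (adjusted 0.00909). Psmb8, Psmb9 and Psmb10 together made up 5.86% ± 1.18 of the catalytic subunit transcripts per kb among healthy libraries (SD, n = 4), 23.7% ± 2.22 with vehicle (n = 7) and 22.1% ± 2.83 with zalfermin (n = 8). These shares are of mRNA, and protein was not measured.

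**Figure D4:**
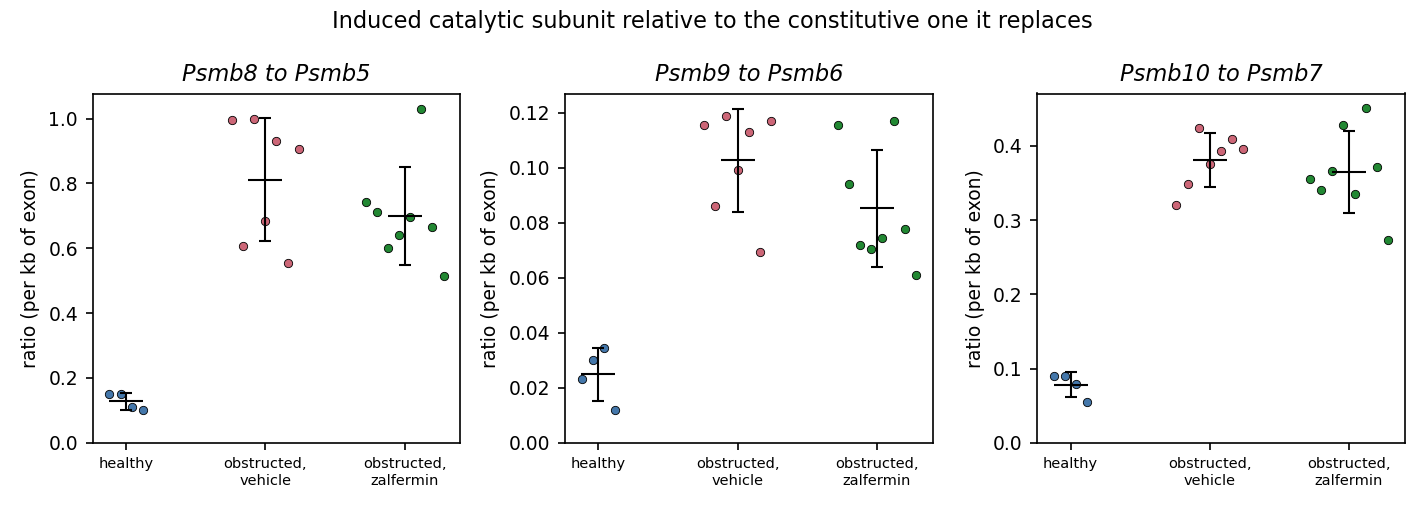
Ratio per kb of exon (y axis, from 0) of each immunoproteasome catalytic gene to its constitutive counterpart in each library (points), with mean (bar) and SD (whiskers) for the 3 groups. Psmb8 to Psmb5 is at most 0.150 in healthy libraries and at least 0.515 in obstructed ones.

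Zalfermin was compared with vehicle among obstructed kidneys, to ask whether it moved these genes. edgeR's quasi-likelihood test called 1.81% of tested genes in this comparison, 0.867% higher and 0.942% lower, and 0 of the 47 members. At an unadjusted p under 0.05 there were 3 members, Psmb8, Psmb9 and Psme3, which is 6.38% of the members beside 15.5% of all tested genes. DESeq2 also called 0. No member's groups separated without overlap, as 0.349% of tested genes did upward and 0.256% downward.

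Psmb8 had 51.9 ± 8.44 CPM under zalfermin (SD, n = 8) beside 61.0 ± 4.66 under vehicle (SD, n = 7). Its log2 fold change was −0.23 (95% interval −0.43 to −0.04, edgeR adjusted p = 0.241). Of 8 zalfermin libraries, 7 lay below every vehicle library, and zalfermin replicate 6, at 71.5 CPM, lay above them all. Without that replicate the value was −0.31 and Psmb8 was called lower (adjusted p = 0.0440), the only member whose call depended on a single library in this comparison.

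Psmb9 had 15.1 ± 3.02 CPM under zalfermin (SD, n = 8) beside 19.2 ± 1.44 under vehicle (SD, n = 7), a log2 fold change of −0.34 (95% interval −0.65 to −0.04, edgeR adjusted p = 0.261). limma's voom with quality weights called it lower (adjusted p = 0.0334). With the GC and length correction edgeR gave −0.26 for Psmb9 (unadjusted p = 0.0872, adjusted 0.359). Psmb8 then stood at −0.17 (unadjusted p = 0.0756, adjusted 0.335). Psmb10, Psme1 and Psme2 gave −0.06, −0.04 and −0.03, with 95% intervals from −0.27 to 0.15, from −0.19 to 0.11 and from −0.20 to 0.13. The 3 catalytic ratios differed between zalfermin and vehicle at exact permutation p = 0.236, 0.115 and 0.492 (adjusted 0.266, 0.148 and 0.492), with folds of 0.869, 0.823 and 0.952. Psmb9 lay below every vehicle library in 6 of 8 zalfermin libraries.

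Cell type markers also differed between these libraries. The summed level of T and NK cell markers was 20.7 to 32.6 CPM under vehicle, 35.8 in zalfermin replicate 6, which also had the highest Psmb8 and Psmb9 of its group, and 12.2 to 18.9 in the other 7 zalfermin libraries. edgeR called 0 of these 7 markers under zalfermin, with 3 at an unadjusted p under 0.05, beside 1.81% and 15.5% of all tested genes. Summed leukocyte markers had medians of 510 CPM under vehicle and 413 under zalfermin, and replicate 6 was again the highest of its group, at 533. Fibroblast markers were the only cell type list with calls under zalfermin, 2 of 5 lower (Col1a1 and Col3a1) and 4 at an unadjusted p under 0.05. Their summed level had medians of 2257 CPM under vehicle and 1436 under zalfermin, without overlap, and zalfermin replicate 6 was the highest of its group at 1811. The part of these cells in the Psmb8 and Psmb9 values was not tested.

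The 31 constitutive subunits gave log2 fold changes from −0.21 to 0.14 under zalfermin, with a median of −0.02 beside 0.01 over all genes. The members outside the immunoproteasome with the smallest p were Psme3 (0.14, 95% interval 0.01 to 0.28), Psmd1 (0.12), Psmb3 (−0.21), Psmd6 (0.14) and Psmd14 (0.11). Their adjusted p-values by edgeR lay between 0.287 and 0.523. The intervals of all members leave room for changes of this size, so a lack of calls does not show that levels were equal.

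Zalfermin kidneys compared with healthy ones share the healthy libraries with the first comparison, so the values are set side by side and no overlap is drawn from them. Here 64.3% of tested genes were called, 37.3% higher and 27% lower. The 5 immunoproteasome and PA28 genes rose, Psmb8 by 2.07, Psmb9 by 1.46, Psmb10 by 1.63, Psme1 by 0.79 and Psme2 by 0.66 on the log2 scale, where vehicle over healthy gave 2.30, 1.80, 1.68, 0.83 and 0.69. Of the constitutive subunits 2 rose (Psmd8 and Psma5) and 16 fell, with Psmb5 and Psmb6 called lower at −0.38 and −0.31. Zalfermin over vehicle gave −0.094 and −0.105 for Psmb5 and Psmb6 (edgeR adjusted p = 0.776 and 0.678). The calls of Psmb5, Psmb6 and Psma5 over healthy were each lost on leaving out any 1 of 7, 6 and 7 libraries. Psma5 was not called with RLE factors or DESeq2. With library totals 10 rose and 1 fell, and Psmb5 and Psmb6 stood at 0.01 and 0.09. With the GC and length correction 6 rose and 5 fell, and Psmb6 stood at 0.14. Groups did not overlap for 12 of the 31 on the lower side, against 21.7% of all tested genes.

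Genes that work next to the immunoproteasome in class I presentation rose in obstructed vehicle over healthy kidneys, 9 of 12 of them, and 3 fell. Of all tested genes 36.2% were called higher and 28.6% lower. Tap1, which with Tap2 pumps peptides into the endoplasmic reticulum, rose from 12.9 ± 2.20 to 52.8 ± 5.22 CPM (SD, n = 4 and 7; log2 fold change 2.03, edgeR adjusted p = 6.82e-10). Tap2 rose by 1.80 and Tapbp, which holds class I at the transporter, by 1.24. B2m, the light chain of class I, rose by 1.71, and the heavy chain genes H2-K1 and H2-D1 by 1.72 and 1.59. The 3 that fell, Calr, Canx and Pdia3, are general folding chaperones of the endoplasmic reticulum. The list's median was 1.42, beside 0.09 over all tested genes.

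All 17 tested genes of the interferon axis rose in the same comparison, with a median of 1.47, where 36.2% of all tested genes were called higher. Ifng itself had too few counts to be tested. The transcription factors Irf1 and Irf9 rose by 1.73 and 1.47. The interferon gamma receptor chains Ifngr2 and Ifngr1 rose by 2.08 and 1.59, and Ifnar1, a chain of the type I receptor, by 1.09. Under zalfermin edgeR called 0 of these 17 and 0 of the 12 class I genes, with 4 and 3 at an unadjusted p under 0.05. Of all tested genes 1.81% were called and 15.5% had an unadjusted p under 0.05.

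The transcription factor that restores constitutive subunits when the proteasome is inhibited, Nfe2l1, was at 292 ± 17.2 CPM in healthy and 321 ± 33.9 in vehicle kidneys (SD, n = 4 and 7; edgeR adjusted p = 0.135). Of the 9 genes of its axis, Nfe2l2, a related stress factor, rose by 0.52, while Ngly1, which removes sugar chains from Nfe2l1, fell by 1.01, Syvn1 by 0.45 and Vcp by 0.24. Among 13 proteasome partners 1 rose and 3 fell: Ubqln2 rose by 0.22, and the shuttle gene Ubqln1 and the ubiquitin receptor gene Adrm1 were among those that fell, by 0.57 and 0.38. Pomp, the maturation factor of the core, gave −0.15 (adjusted p = 0.179). Among 7 ubiquitin and E1 enzyme genes Uba7, the E1 enzyme for the interferon-induced modifier ISG15, rose by 1.47 and Rps27a by 0.27, and 1 gene fell. Over all tested genes 64.8% were called in vehicle over healthy kidneys, 36.2% higher and 28.6% lower. That is a larger share called than in each of these lists. edgeR called 0 of these 29 genes under zalfermin, with 2 at an unadjusted p under 0.05 (1 partner and 1 of the Nfe2l1 axis). The shares of all tested genes were 1.81% called and 15.5% at an unadjusted p under 0.05.

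**Figure D5:**
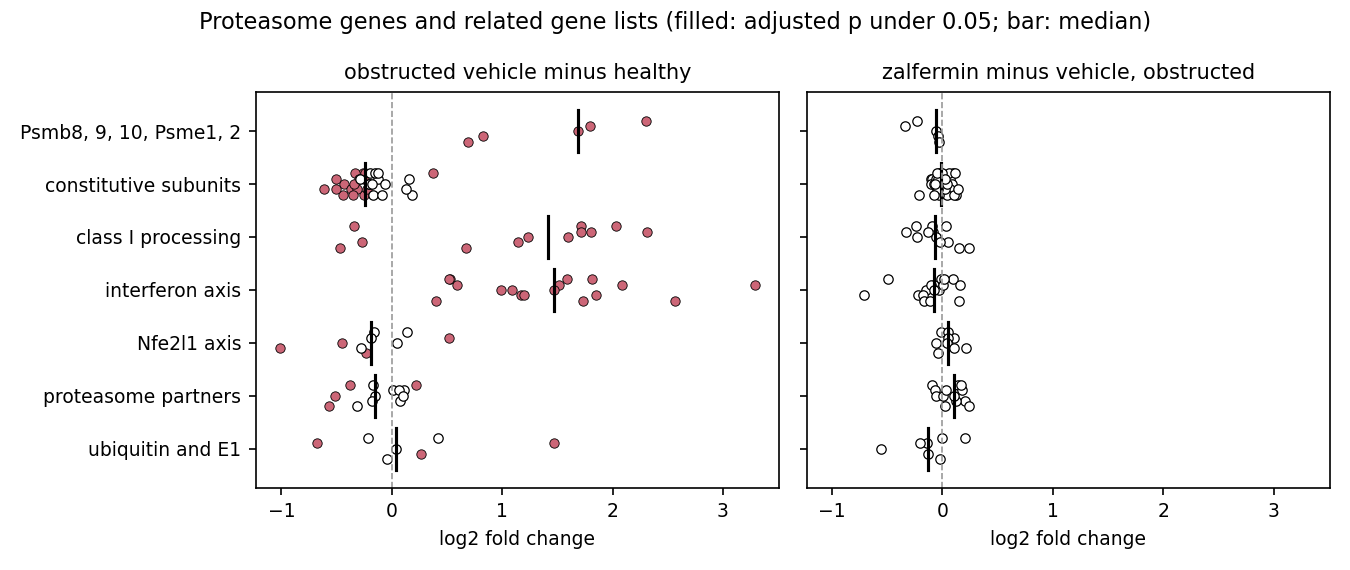
Log2 fold change (x axis) of the members and of the 5 related gene lists (y axis), 1 point per gene, filled where adjusted p was under 0.05, with the median (bar), for obstructed vehicle over healthy (left) and zalfermin over vehicle (right). The medians of class I processing (1.42) and the interferon axis (1.47) lie near that of the immunoproteasome and PA28 genes (1.68) on the left.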

How the data were processed

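RNA from mouse kidney was sequenced in 19 libraries, per the labels with a directional kit. The authors deposited one table of raw counts, with no normalization; they aligned to GRCm38 with STAR 2.7.0f per the submitters' processing notes. For the counting program, its strand setting and the annotation, the entry is: not given in the sources used here. Groups follow the labels.

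Of all genes, 16026 passed filterByExpr of edgeR at a minimum count of 10 and a total of 15. One quasi-likelihood model was fitted with TMM factors (edgeR 4.0.16, R 4.3.3), with Benjamini-Hochberg adjustment over all tested genes and a threshold of 0.05. TMM factors were 0.751 to 0.843 in healthy and 1.02 to 1.11 in obstructed libraries. CPM per kb used GENCODE M21 exon lengths. Catalytic ratios were tested with two-sided exact permutation tests (SciPy 1.17.1). Alternatives were other scalings, DESeq2 1.42.0, voom (limma 3.58.1), other filters, a fit of 2 groups, a robust fit, a GC and length correction, and each library left out. The edgeR, DESeq2 and voom fits were checked on simulated counts with a small set of changed genes. The permutation tests, the GC and length correction and a shift in composition as large as that seen here were not checked in this way.

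Named were the 5 immunoproteasome and PA28 genes, Psmb5, Psmb6, Psmb7, the 5 largest and 5 smallest fold changes among other members, the 5 smallest p under zalfermin, and set genes of each list; a few others were named after their values were seen. Members and lists were chosen with earlier results of these data known. No 2 libraries of a group agreed within sampling noise (smallest chi-square per degree of freedom 5.73). Members without a promoter window were Psmb1, Psmb2, Psmb7, Psmc3, Psmd3 and Psmd7, and that of Psmg2 was not used here. Values of some genes of the related lists are not reported here.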

Additional observations from a re-analysis of the deposited data

Results flagged for a closer look

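Within groups of 4 to 8 libraries, 14 of 150 tested sets of values held a library far from the others, where chance gives about 1 in 20. In vehicle replicate 6, Psma1 was at 80.1 CPM (others 110 to 127), Psma3 at 34.6 (57.1 to 71.5), Psma4 at 71.6 (97.7 to 116), Psmc6 at 53.4 (104 to 128), Psmd6 at 55.7 (79.4 to 95.6) and Psmd2, in the other direction, at 305 (216 to 246). In zalfermin replicate 6, Psmb8 was at 71.5 CPM (others 43.2 to 52.2), Psme2b at 4.31 (2.41 to 3.14) and the Psmb8 to Psmb5 ratio per kb at 1.03 (0.515 to 0.743). Among healthy libraries, Psma3 was at 69.1 CPM in replicate 1 (81.2 to 81.6), Psme2 at 57.4 in replicate 2 (46.8 to 48.4) and Psmd1 at 180 in replicate 4 (155 to 159). Psmd10 was at 49.3 CPM in zalfermin replicate 3 (37.4 to 42.2) and Psmg4 at 14.3 in zalfermin replicate 4 (9.18 to 11.1).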

How the results depend on the processing

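In vehicle over healthy kidneys the 5 immunoproteasome and PA28 genes were called higher in all 29 alternative fits. Constitutive subunits called higher and lower (1 and 16) became 13 and 0 with library totals without factors, 5 and 5 with GC and length correction, 2 and 26 with voom, and 2 higher with upper-quartile factors; with 1 library left out, 10 to 25 were lower. All genes called became 9373 higher and 2344 lower with library totals. In zalfermin over healthy kidneys constitutive calls (2 and 16) became 10 and 1 with library totals, 6 and 5 with GC and length correction, 1 and 25 with RLE factors, DESeq2 or only 2 groups, and 1 higher without a filter; leaving out 1 library gave 1 to 2 higher and 9 to 25 lower. All genes became 9451 higher and 2351 lower with library totals. In zalfermin over vehicle, 1 immunoproteasome gene (Psmb9) was called lower by voom, and 0 to 1 with 1 library left out. All genes called (139 higher, 151 lower) became 82 higher with library totals, 260 and 342 with DESeq2, 502 and 646 with voom and 323 higher with GC and length correction; leaving out 1 library gave 71 to 242 higher and 73 to 275 lower. The Psmb9 to Psmb6 log2 difference of zalfermin and vehicle was −0.37 to −0.22 with 1 library left out, and passed the threshold without vehicle replicate 6. Sign changes are listed for the named genes only, where either fit called the gene. With library totals, signs reversed in vehicle over healthy for Psme3 (0.13), Psmd1 (0.27) and Psmd14 (0.082). In zalfermin over healthy they reversed for Psmb5 (0.013), Psmb6 (0.088), Psmd6 (0.022), Psme3 (0.24), Psmd1 (0.35), Psmb3 (0.01) and Psmd14 (0.15). With GC and length correction signs reversed for Psmb3 (0.21 in vehicle, 0.067 in zalfermin over healthy) and Psmb6 (0.14 in zalfermin over healthy). Of the 31 constitutive subunits, 4 were above 0 in vehicle over healthy, 26 with library totals and 12 with GC and length correction. For zalfermin over healthy these were 4, 29 and 14. Psma6 and Psmd13 went from called lower to called higher in vehicle over healthy with library totals. For other changed calls the cause was not tested. No paired analysis was possible because the labels carry no replicate numbers shared across groups.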
